A study of Rattus norvegicus with 16 samples.

Results

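The genes described here are 8 members of the angiotensin and endothelin systems, Ace, Agt, Agtr1a, Nr3c2, Edn1, Ednra, Ednrb and Ece1, in the left ventricle of rats bred for running capacity. They were chosen by name, as the probe sets whose only gene symbol in the platform's annotation is one of these names. Of the 8 genes, 6 had a probe set, 8 probe sets in all, among 14217 named genes and 31042 tested probe sets. Ace and Agtr1a had 2 probe sets each. No probe set carried the name Ednra or Ednrb, so both endothelin receptors were not analysed here. Where a gene had 2 probe sets, the brighter one by mean over all arrays stands for the gene and both are shown.

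RNA from 16 female rats of about 7 months was measured, 1 Affymetrix rat array per animal and 4 animals per group. All came from generation 16 of breeding from the N: NIH stock, either of the High Capacity Runner line (HCR) or of the Low Capacity Runner line (LCR), lines selected on treadmill capacity at about 11 weeks of age. The groups were HCR trained, HCR sedentary, LCR trained and LCR sedentary rats. Trained rats ran 5 days a week for 8 weeks on a treadmill inclined by 25 degrees, in sessions of 1.5 hours in which bouts of 8 minutes at 85 to 90% of VO2max, the maximal oxygen uptake, took turns with 2 minutes at 50 to 60%, and sedentary rats were of the same age. A line difference covers all that separates the selected lines, and the tissue is whole ventricle. In such bulk RNA, fewer cells of a type and less RNA per cell cannot be told apart.

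In the renin-angiotensin system, angiotensinogen (Agt) is cut by renin to angiotensin I, and angiotensin-converting enzyme (Ace), an enzyme of the endothelial surface that also breaks down bradykinin, makes angiotensin II from it. Angiotensin II raises blood pressure and promotes growth and fibrosis in the heart, mostly through the type 1 receptor (Agtr1a), and drives the adrenal release of aldosterone, the ligand of the mineralocorticoid receptor (Nr3c2). Endothelin-1 (Edn1) is a vasoconstrictor peptide made mainly by endothelial cells and released from its precursor by endothelin-converting enzyme (Ece1), and it acts through the receptors Ednra and Ednrb.

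The promoters of Ace, Agtr1a and Edn1 are shown because the values of these 3 genes set rats or groups apart below. Each runs from 250 bases before to 50 bases after the annotated start, in the RefSeq table for GRCr8, a reference genome and not a sequence read from these rats. That table held a promoter for 6 of the 8 members, 4 of them measured here. The letters searched for on both strands were TATAAA for a TATA box, TGANTCA for an AP-1 site, GATAA for a GATA site, GGGCGG for a GC box and ACGTG for the core of a hypoxia element, and capitals mark their matches. Positions count back from the annotated start.
Ace, chr10:91409879-91410178, plus strand: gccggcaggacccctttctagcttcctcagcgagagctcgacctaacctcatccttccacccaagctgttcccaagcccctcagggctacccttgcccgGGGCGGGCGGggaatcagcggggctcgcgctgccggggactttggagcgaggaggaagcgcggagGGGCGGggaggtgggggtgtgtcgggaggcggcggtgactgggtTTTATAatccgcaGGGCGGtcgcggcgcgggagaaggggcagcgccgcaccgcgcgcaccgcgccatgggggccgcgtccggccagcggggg
Agtr1a, chr17:34435383-34435682, minus strand: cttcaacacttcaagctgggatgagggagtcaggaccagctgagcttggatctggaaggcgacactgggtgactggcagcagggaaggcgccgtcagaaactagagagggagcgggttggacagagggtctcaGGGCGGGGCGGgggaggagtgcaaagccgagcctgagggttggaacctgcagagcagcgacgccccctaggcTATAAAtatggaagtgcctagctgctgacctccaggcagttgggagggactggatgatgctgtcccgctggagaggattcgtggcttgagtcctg
Edn1, chr17:22666638-22666937, minus strand: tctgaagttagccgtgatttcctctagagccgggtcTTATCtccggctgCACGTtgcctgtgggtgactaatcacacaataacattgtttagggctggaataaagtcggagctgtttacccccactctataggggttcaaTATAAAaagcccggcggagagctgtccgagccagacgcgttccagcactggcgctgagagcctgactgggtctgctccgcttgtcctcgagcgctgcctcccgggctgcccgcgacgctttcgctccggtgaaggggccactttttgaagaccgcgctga

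The Ace window had 72.3% G and C, 4 GC boxes, 2 of which overlap, and a TATA box match on the minus strand of the gene at -42. Agtr1a had 60.7% G and C, a TATA box at -45 and 2 overlapping GC boxes. Edn1 had 57.3% G and C, a TATA box at -110, and a GATA site and a hypoxia core on the minus strand at -214 and -201. Among 33469 promoters of the same 300 bases, a TATA box was in 14.2%, an AP-1 site in 7.33%, a GATA site in 26.5%, a GC box in 33.1% and a hypoxia core in 19.3%. These letter matches are a description and say nothing of a factor's binding.

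Array medians lay between 5.85 and 5.95 log2 units, and the 16 arrays correlated at r between 0.984 and 0.995 across probe sets. The interquartile range of an array's log2 values was 2.06 to 2.19 in HCR trained, 1.97 to 2.10 in HCR sedentary, 2.06 to 2.27 in LCR trained and 2.14 to 2.21 in LCR sedentary rats. The markers of the ventricular cardiomyocyte averaged 13.4 to 13.6 log2 units on every array, and the tissue is labelled left ventricle. Rat 5 of the HCR sedentary group stood apart in Xist, the RNA of the inactive X chromosome, with 3.76 to 4.94 over its 4 probe sets against 7.56 to 10.34 in the other 15 rats. Without that rat 0 of the 8 member probe sets described below were called in limma in any comparison, and its removal moved the line and training differences of Ace most.

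No member differed between groups past the threshold. In limma, with Benjamini-Hochberg adjustment over all 31042 probe sets, an adjusted p up to 0.05 counted as a call. In HCR against LCR sedentary rats 0 of the 8 member probe sets were called, where 4.99% of all probe sets were, and 3 of 8 had an unadjusted p under 0.05, against 27.7% of all. Between HCR and LCR trained rats it was 0 of 8, against 0.0966% of all, with 0 of 8 and 7.33% at the unadjusted level. For trained against sedentary HCR it was 0 of 8, against 0%, with 1 of 8 and 13.9% at the unadjusted level. Trained against sedentary LCR gave 0 of 8, against 0.00322%, with 1 of 8 and 5.57% at the unadjusted level. The line by training interaction, which sets the training response of HCR against that of LCR, gave 0 of 8, against 0%, with 0 of 8 and 9.88% at the unadjusted level. Averaged over both training states the line difference gave 0 of 8, against 3.84%, and 3 of 8 against 24.1% at the unadjusted level. Training averaged over both lines gave 0 of 8, against 0.00644%, and 2 of 8 against 9.24% at the unadjusted level. Between trained lines, for training in HCR, and over both states or both lines, the compared groups overlapped in all 8 member probe sets, where 3.14%, 8%, 0.383% and 0.0419% of all probe sets had no overlap. The median member difference was 0.02 between sedentary lines and -0.04 between trained lines, beside 0.02 and 0.00 over all probe sets, and for training it was -0.14 in HCR and -0.06 in LCR, beside -0.01 and 0.00. Between sedentary lines 4 member probe sets were higher and 4 lower in HCR, so that their signs cancel. Taken without sign, the median was 0.26 between sedentary and 0.06 between trained lines, beside 0.11 and 0.06 over all probe sets. For training it was 0.16 in HCR and 0.09 in LCR, beside 0.08 and 0.06.

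**Figure D1:**
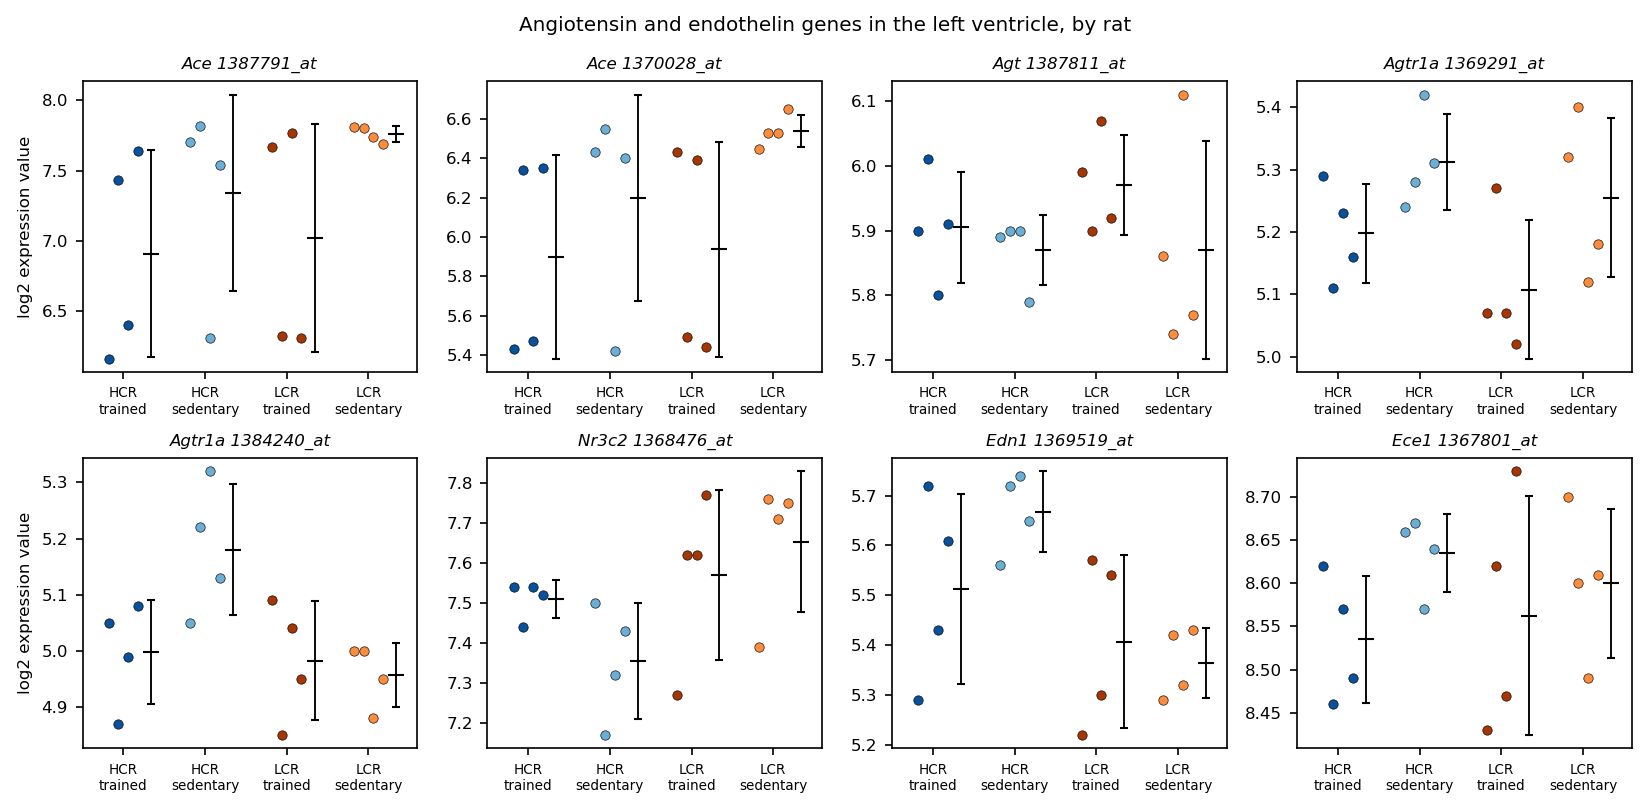
Log2 expression value of the 8 member probe sets in each of 16 rats (points), with the group mean and SD beside them (bars, n = 4 per group). The axes differ in range between panels and do not start at 0. The Ace panels fall into 2 levels more than 0.8 log2 units apart, while the other probe sets vary without such a gap.

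Agt, the precursor of all angiotensin peptides, was nearly level over the groups. Its probe set 1387811_at averaged 5.90 ± 0.09 log2 units in HCR trained, 5.87 ± 0.05 in HCR sedentary, 5.97 ± 0.08 in LCR trained and 5.87 ± 0.17 in LCR sedentary rats (SD, n = 4 each), and all 16 values lay between 5.74 and 6.11. All 4 groups overlapped. The sedentary line difference was -0.00 ± 0.08 (SE), with a 95% interval of -0.16 to 0.16 and an adjusted p of 0.983 in limma, an interval that spans folds of 0.894 to 1.11. The training difference in LCR, 0.10 with an interval of -0.06 to 0.25, had the largest size of the 4 comparisons of 2 groups for Agt.

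Ace signals took 2 distinct levels, and the rats at the lower one were the same on both of its probe sets. The values are hybridisation signals, and with no sequence of these rats at hand, less Ace RNA and weaker binding of the probes to it cannot be told apart. On the brighter probe set, 1387791_at, HCR trained rats 3, 4, 5 and 6 read 6.16, 7.43, 6.40 and 7.64 log2 units, and HCR sedentary rats 3, 4, 5 and 6 read 7.70, 7.82, 6.31 and 7.54. LCR trained rats 1, 2, 3 and 4 read 7.67, 6.32, 7.77 and 6.31, and LCR sedentary rats 2, 3, 5 and 6 read 7.81, 7.80, 7.74 and 7.69. Thus 5 rats lay at or below 6.40 and 11 at or above 7.43, with 1.03 log2 units between them and nothing in that gap.

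The dimmer probe set, 1370028_at, gave the same split at lower values. HCR trained rats read 5.43, 6.34, 5.47 and 6.35, and HCR sedentary rats 6.43, 6.55, 5.42 and 6.40, in the same order of rats. LCR trained rats read 6.43, 5.49, 6.39 and 5.44, and LCR sedentary rats 6.45, 6.53, 6.53 and 6.65. The gap ran from 5.49 to 6.34, 0.85 log2 units. The 5 low rats were HCR trained rats 3 and 5, HCR sedentary rat 5, and LCR trained rats 2 and 4, and none was LCR sedentary. By line that is 3 of 8 HCR and 2 of 8 LCR rats, and by training 4 of 8 trained and 1 of 8 sedentary rats. The levels therefore crossed both factors of the design.

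**Figure D2:**
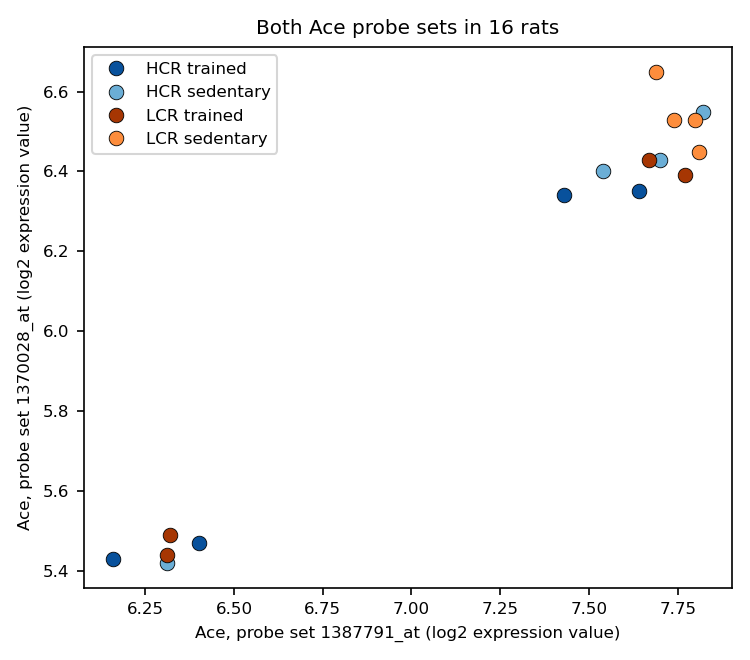
Log2 value of Ace probe set 1370028_at (vertical axis) against probe set 1387791_at (horizontal axis) in the 16 rats, coloured by group. The same 5 rats, of 3 groups, lie at or below 6.40 and 5.49, and the other 11 at or above 7.43 and 6.34.

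Gaps of this kind were rare on the arrays. A largest gap of 1 log2 unit or more with at least 3 rats on each side occurred in 23 of 31042 probe sets, 0.0741%, and in 8 of them, 0.0258%, the gap was also more than 0.5 of the whole range. That limit, chosen with the Ace values known, lies just under the gap of the brighter Ace probe set, and the dimmer one, at 0.85, does not reach it. Over the 16 rats the SD of the 2 Ace probe sets stood at percentiles 99.6 and 98.9 of all probe sets. The other 6 member probe sets had largest gaps of 0.07 to 0.11. The same 5 rats were the lowest 5 on 4 other probe sets of the whole table. Those were of Mgst1, a microsomal glutathione transferase, with a gap of 0.48, and of Vat1, Afg2a and Polr3f, with gaps of 0.14, 0.09 and 0.07. These 4 were found by a search over all 31042 probe sets for this set of lowest rats. So large a search can give such matches by chance alone, and whether chance would give as many was not tested. A shared split with Ace therefore cannot be read from them. Of the 20 genes that lie nearest to Ace in the RefSeq gene order, 10 on each side, 17 had probe sets, and 0 of their 25 probe sets had these 5 rats as its lowest. Since so exact a match was rare in the whole table, its absence from 25 probe sets says little about these neighbours. The largest gap among them was 0.85, in Myl4, whose values spanned 2.59 log2 units.

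Because the 2 levels lay inside groups, the group differences of Ace had wide intervals. Probe set 1387791_at averaged 6.91 ± 0.74 in HCR trained, 7.34 ± 0.70 in HCR sedentary, 7.02 ± 0.81 in LCR trained and 7.76 ± 0.05 in LCR sedentary rats (SD, n = 4 each), and from the highest mean to the lowest each group overlapped the next. Trained minus sedentary was -0.59 ± 0.28 (SE) over both lines, with a 95% interval of -1.18 to 0.00, an unadjusted p of 0.0509 and an adjusted p of 0.541 in limma. The dimmer probe set gave -0.45 ± 0.20, with an interval of -0.88 to -0.03 and an adjusted p of 0.511. Within LCR the brighter one gave -0.74 ± 0.40 (adjusted p = 0.918), and the dimmer one -0.60 ± 0.28 (adjusted p = 0.887). On the dimmer one, all LCR trained rats lay below all LCR sedentary rats, the one such case among 8 member probe sets, where 1.5% of all probe sets did so and 2.82% had no overlap in either direction. In HCR the brighter one gave -0.44 ± 0.40 (adjusted p = 0.625), and the lines differed by -0.42 ± 0.40 in sedentary rats (adjusted p = 0.496) and by -0.11 ± 0.40 in trained rats (adjusted p = 0.988). These values rest in part on HCR sedentary rat 5. Without it the sedentary line difference was -0.08 on both probe sets (adjusted p = 0.925 and 0.878, brighter first). The training difference in HCR was then -0.78 and -0.57 (adjusted p = 0.555 and 0.533), and over both lines -0.76 and -0.58 (adjusted p = 0.558 and 0.486).

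Agtr1a, the main angiotensin II receptor of the rat heart, had probe sets 1369291_at and 1384240_at, with means of 5.22 and 5.03 over the 16 rats, and between the lines they gave different values. On the dimmer one, HCR trained rats read 5.05, 4.87, 4.99 and 5.08, and HCR sedentary rats 5.05, 5.22, 5.32 and 5.13. LCR trained rats read 5.09, 4.85, 5.04 and 4.95, and LCR sedentary rats 5.00, 5.00, 4.88 and 4.95. All 4 HCR sedentary rats thus lay above all 4 LCR sedentary rats, as did 10.2% of all probe sets, with 18.3% apart in either direction. Edn1, below, is the other member of which this held, 2 of 8 probe sets. The sedentary line difference was 0.22 ± 0.07 (SE), a fold of 1.17 with a 95% interval of 1.05 to 1.29, and did not pass (adjusted p = 0.0683 in limma). Without HCR sedentary rat 5 it was 0.18 (adjusted p = 0.193), and without HCR sedentary rat 3 it was called (adjusted p = 0.0446).

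On the brighter Agtr1a probe set the same comparison gave 0.06 ± 0.07 (adjusted p = 0.620), with overlapping groups, and 0.02 (adjusted p = 0.894) without HCR sedentary rat 5. It averaged 5.20 ± 0.08 in HCR trained, 5.31 ± 0.08 in HCR sedentary, 5.11 ± 0.11 in LCR trained and 5.25 ± 0.13 in LCR sedentary rats (SD, n = 4 each). Trained rats had the lower mean in both lines, by 0.12 in HCR and 0.15 in LCR. Over both lines the 8 trained rats ran from 5.02 through a median of 5.14 to 5.29, and the 8 sedentary rats from 5.12 through 5.29 to 5.42. That training difference was -0.13 ± 0.05 (SE), with an unadjusted p of 0.0209 and an adjusted p of 0.481, and it was -0.11 (adjusted p = 0.689) without HCR sedentary rat 5. The dimmer probe set gave -0.18 ± 0.07 for training in HCR (adjusted p = 0.290) but 0.02 ± 0.07 in LCR (adjusted p = 0.993), and the interaction, -0.21 ± 0.10, did not pass (adjusted p = 0.513). Without HCR sedentary rat 5 the training difference in HCR was -0.14 (adjusted p = 0.582) and the interaction -0.16 (adjusted p = 0.710). Its order of group means was HCR sedentary, HCR trained, LCR trained and LCR sedentary, 5.18, 5.00, 4.98 and 4.96, and no neighbours differed past the threshold. Agtr1b, a close paralog, may share probes with Agtr1a, which was not examined.

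Nr3c2, the mineralocorticoid receptor, which in heart muscle binds both aldosterone and glucocorticoids, had its lowest group mean in HCR sedentary rats. Its probe set 1368476_at read 7.54, 7.44, 7.54 and 7.52 in HCR trained rats and 7.50, 7.17, 7.32 and 7.43 in HCR sedentary rats. LCR trained rats read 7.27, 7.62, 7.62 and 7.77, and LCR sedentary rats 7.39, 7.76, 7.71 and 7.75. LCR sedentary rat 2 lay among the HCR sedentary values, and the other 3 of its group lay above them, so the groups overlapped by that rat. The sedentary line difference was -0.30 ± 0.10 (SE), a fold of 0.814 with an interval of 0.700 to 0.948 (adjusted p = 0.0890). Leaving out LCR sedentary rat 2 gave -0.38 and a call (adjusted p = 0.0418), and leaving out HCR sedentary rat 5 gave -0.28 (adjusted p = 0.190).

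Among trained rats the Nr3c2 line difference was -0.06 ± 0.10 (adjusted p = 0.966). Over both training states the 8 HCR rats ran from 7.17 through a median of 7.47 to 7.54 and the 8 LCR rats from 7.27 through 7.67 to 7.77, a difference of -0.18 ± 0.07 (adjusted p = 0.152), or -0.17 (adjusted p = 0.240) without HCR sedentary rat 5. The order of group means was LCR sedentary, LCR trained, HCR trained and HCR sedentary, 7.65, 7.57, 7.51 and 7.36, with no neighbours past the threshold. Training differences were 0.16 ± 0.10 in HCR (adjusted p = 0.493, and 0.14 without that rat) and -0.08 ± 0.10 in LCR (adjusted p = 0.992).

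Edn1 had its highest group mean in HCR sedentary rats. Probe set 1369519_at read 5.29, 5.72, 5.43 and 5.61 in HCR trained rats and 5.56, 5.72, 5.74 and 5.65 in HCR sedentary rats. LCR trained rats read 5.22, 5.57, 5.30 and 5.54, and LCR sedentary rats 5.29, 5.42, 5.32 and 5.43. Every HCR sedentary rat lay above every LCR sedentary rat, by at least 0.13, while the trained groups overlapped over most of their range. The sedentary line difference was 0.31 ± 0.09 (SE), a fold of 1.24 with a 95% interval of 1.08 to 1.42, and did not pass (adjusted p = 0.0631). It was 0.28 (adjusted p = 0.159) without HCR sedentary rat 5.

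Over both training states the 8 HCR rats ran in Edn1 from 5.29 through a median of 5.63 to 5.74 and the 8 LCR rats from 5.22 through 5.37 to 5.57. The difference was 0.21 ± 0.07 (adjusted p = 0.0790), and it was called without HCR trained rat 3 (0.24, adjusted p = 0.0422) or without LCR trained rat 2 (0.23, adjusted p = 0.0420). It was 0.19 (adjusted p = 0.148) without HCR sedentary rat 5. Among trained rats it was 0.11 ± 0.09 (adjusted p = 0.894). Trained minus sedentary was -0.15 ± 0.09 in HCR (adjusted p = 0.453) and 0.05 ± 0.09 in LCR (adjusted p = 0.992), and the difference between these was -0.20 ± 0.13 (adjusted p = 0.603). Without HCR sedentary rat 5 the HCR value was -0.13 and that difference -0.17 (adjusted p = 0.706 and 0.773). The order of group means was HCR sedentary, HCR trained, LCR trained and LCR sedentary, 5.67, 5.51, 5.41 and 5.36, and no neighbours differed past the threshold.

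Ece1, which releases endothelin-1 from its precursor, had the smallest range of the 8 member probe sets over the 16 rats, 0.30 log2 units. Probe set 1367801_at averaged 8.53 ± 0.07 in HCR trained, 8.63 ± 0.04 in HCR sedentary, 8.56 ± 0.14 in LCR trained and 8.60 ± 0.09 in LCR sedentary rats (SD, n = 4 each). Its line differences were 0.04 ± 0.07 in sedentary rats (adjusted p = 0.744) and -0.03 ± 0.07 in trained rats (adjusted p = 0.977), with 95% intervals of -0.11 to 0.18 and -0.17 to 0.12. Training differences were -0.10 ± 0.07 in HCR (adjusted p = 0.505) and -0.04 ± 0.07 in LCR (adjusted p = 0.992). Without HCR sedentary rat 5 the sedentary line difference was 0.06 and the training difference in HCR -0.12 (adjusted p = 0.678 and 0.631). All 4 groups overlapped.

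**Figure D3:**
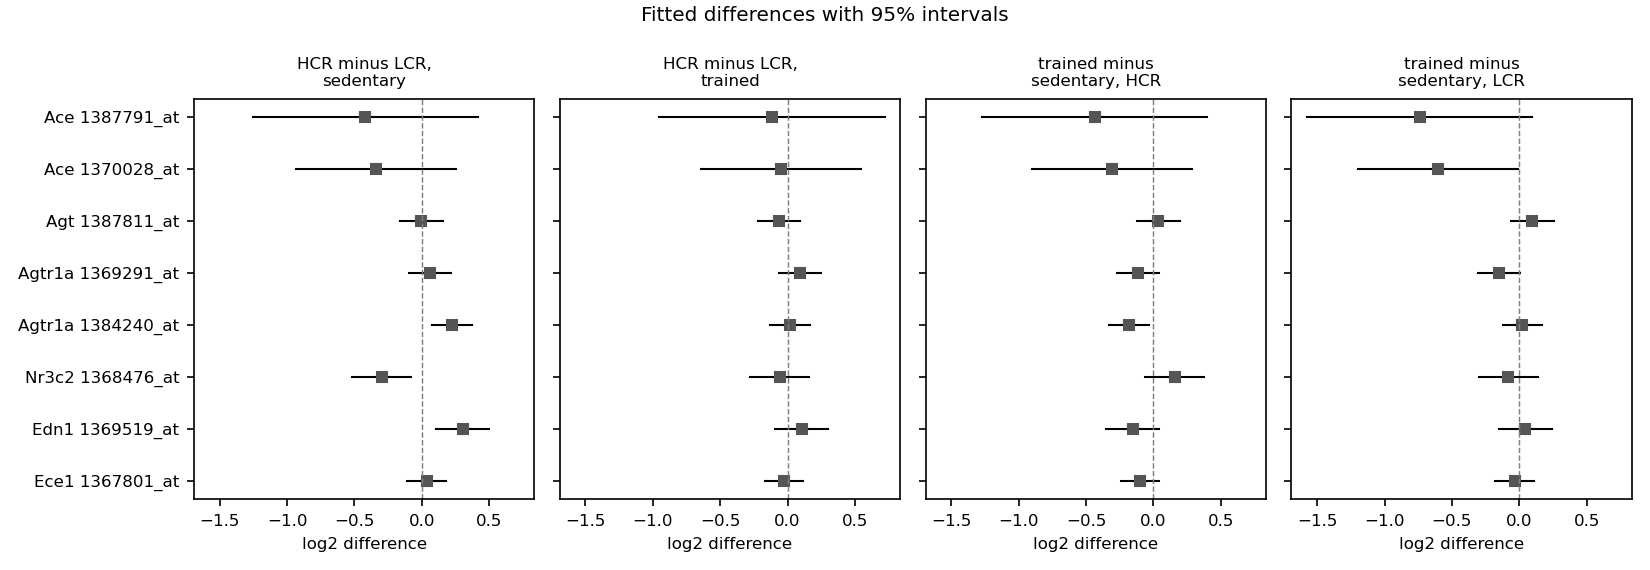
Fitted log2 difference (squares) with its 95% interval (lines) for the 8 member probe sets in the 4 comparisons of 2 groups, with 0 as a dashed line and positive values higher in the group named first. Edn1 and the dimmer Agtr1a probe set lie above 0 and Nr3c2 below 0 between the sedentary lines, and both Ace probe sets have the widest intervals; none passed after adjustment.

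The sedentary line differences of the members can be read against probe sets of like level. Among 5180 probe sets within 0.25 log2 units of the mean of Edn1, the median HCR minus LCR difference in sedentary rats was 0.09, with 5th and 95th percentiles of -0.19 and 0.26, and 97.9% lay at or below Edn1. For the brighter Agtr1a probe set, at 0.06, the median of 5226 like probe sets was 0.09, and 37.9% lay at or below it. For the dimmer one the median of 4950 was 0.09, and 92.6% lay at or below it. For Nr3c2 the median of 1827 was -0.10, and 10.6% lay at or below it. The differences of Edn1, Nr3c2 and both Agtr1a probe sets had the sign of the median of their level. Ece1 and Agt did not: they were at 0.04 and -0.00, where the medians of like probe sets were -0.12 and 0.08. The brighter and dimmer Ace probe sets, with their 2 levels, were at -0.42 and -0.34, where the medians were -0.09 and 0.06. For each of them 3.1% of like probe sets lay at or below it. The part of the narrower value range of HCR sedentary arrays in these differences was not tested.

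Markers of cell types that could carry these genes were set beside the same sedentary comparison, and of most lists few or no members were called. Over all probe sets 4.99% were called, and 27.7% had an unadjusted p under 0.05. Of 12 fibroblast markers 12 were lower in HCR sedentary rats, with a median difference of -0.33, and 2 of them were called (Lum and Fbln1). Their mean level on an array, relative to its mean over the 16, was -0.211 to -0.066 in HCR sedentary rats and 0.036 to 0.261 in LCR sedentary rats. In absolute terms they averaged 8.72 to 8.86 log2 units in HCR and 8.96 to 9.19 in LCR sedentary rats. At the nearest member level, that of Ece1, like probe sets had a median difference of -0.12 and a 5th percentile of -0.36. Of 12 markers of smooth muscle and pericytes 9 were higher, 2 of them called (Acta2 and Notch3), with levels of -0.0378 to 0.0502 in HCR and -0.176 to -0.0113 in LCR sedentary rats. Of 9 markers of the endothelium, where Ace and Edn1 are mainly made, 5 were higher and 4 lower, and 0 were called in limma, with 1 at an unadjusted p under 0.05. Their levels were -0.00874 to 0.0480 in HCR and -0.101 to 0.0486 in LCR sedentary rats. Levels of the adipocyte, mast cell and nerve lists lay higher in HCR sedentary rats without overlap, and 0 of their genes were called in limma, with 2, 2 and 3 at an unadjusted p under 0.05. Their median differences were 0.15, 0.07 and 0.20. In the sedentary groups the mast cell and nerve lists averaged 5.61 to 5.84 and 5.41 to 5.64 log2 units. At the levels of Edn1 and Agt, which lie near, like probe sets had medians of 0.09 and 0.08. Of 10 macrophage markers 5 were higher, with Aif1 called, of 11 ventricular cardiomyocyte markers 3 were higher, with a probe set of Myl2 called, and of 5 blood cell markers 5 were higher and 0 called in limma, with 0 at an unadjusted p under 0.05. The part of these in the member differences was not tested, nor that of the arrays' value range in the marker levels.

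Other genes of the pathway, 131 in 9 lists drawn up for these systems, were measured for 114 genes by 167 probe sets. In sedentary rats 5 of the 167 were called between the lines, 2.99% beside 4.99% of all probe sets, and over both training states 6, or 3.59% beside 3.84%. In the other 5 comparisons 0 of 167 were called in limma, with 14 to 19 at an unadjusted p under 0.05. Over all probe sets 5.57 to 13.9% were under that level in these 5 comparisons. The calls of sedentary rats were Enpep and Scnn1g, higher in HCR, and Ddit4, Nedd4l and Tgfb3, lower in HCR. Over both training states they were Enpep, Nppa and Ncf1, higher in HCR, and Atp6ap2, Ddit4 and Tgfb3, lower in HCR.

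Among 10 measured genes of angiotensin peptide processing, Enpep and Atp6ap2 were called. Over both training states that was 2 of 14 probe sets, beside 3.84% of all. Enpep, aminopeptidase A, which turns angiotensin II into angiotensin III, was higher in HCR over both training states. Its probe set 1368512_a_at read 9.03, 9.36, 9.23 and 9.10 in HCR trained and 9.12, 9.11, 9.11 and 9.14 in HCR sedentary rats, against 8.94, 8.68, 8.96 and 8.91 in LCR trained and 8.80, 8.80, 8.93 and 8.83 in LCR sedentary rats. All 8 HCR rats lay above all 8 LCR rats. Such a separation, in either direction, held for 0.383% of all probe sets. The difference was 0.29 ± 0.05 (SE), a fold of 1.22 with a 95% interval of 1.13 to 1.32 (adjusted p = 0.00925), and it was 0.28 ± 0.07 in sedentary rats (adjusted p = 0.0441) and 0.31 in trained rats, where it was not called (adjusted p = 0.199). The call over both states held without any single rat (adjusted p at most 0.0217). The sedentary call was lost in 9 of the 16 fits that left out a rat, without any one of the 8 sedentary rats or HCR trained rat 5 (adjusted p up to 0.109, without HCR sedentary rat 5). A second Enpep probe set, 1368513_at, gave -0.01 ± 0.05 over both states (adjusted p = 0.947), with all 16 values between 6.72 and 7.05.

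Atp6ap2, the (pro)renin receptor, was lower in HCR over both training states by -0.22 ± 0.06 log2 units (adjusted p = 0.0432). Its probe set 1379255_at averaged 7.62 ± 0.09 in HCR trained and 7.59 ± 0.18 in HCR sedentary rats, against 7.80 ± 0.12 in LCR trained and 7.85 ± 0.04 in LCR sedentary rats (SD, n = 4 each). That call was lost in 13 of the 16 fits that left out a rat, that is all but those without HCR sedentary rats 3 and 6 or LCR trained rat 2, with adjusted p up to 0.0856 (without LCR trained rat 4). Its dimmer probe set gave -0.12 ± 0.05 (adjusted p = 0.158).

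**Figure D4:**
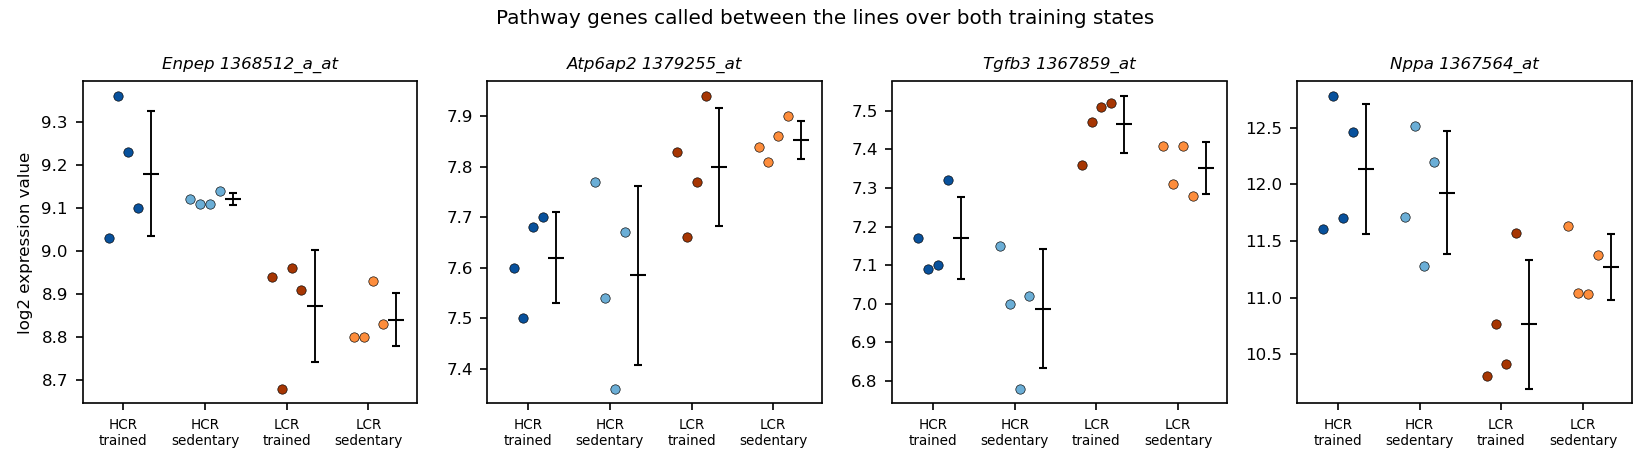
Log2 expression value of the brightest probe set of Enpep, Atp6ap2, Tgfb3 and Nppa in each of 16 rats (points), with group mean and SD (bars, n = 4 per group); the axes differ in range and do not start at 0. All 8 HCR rats lie above all 8 LCR rats in Enpep, while Tgfb3 and Atp6ap2 are lower in HCR and Nppa is higher, with some overlap.

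Of 6 measured receptors and receptor partners 0 were called in any comparison in limma. Between sedentary lines 1 had any probe set with an unadjusted p under 0.05, beside 27.7% of all single probe sets. The nearest was Agtr2, the type 2 angiotensin receptor, at 0.27 ± 0.08 between sedentary lines (adjusted p = 0.0579). Its probe set 1369711_at read 5.18, 5.01, 5.16 and 5.28 in HCR trained rats, against 5.39, 5.43, 5.64 and 5.53 in HCR sedentary rats, with no overlap, as for 8% of all probe sets, and a training difference of -0.34 ± 0.08 (adjusted p = 0.177). Without HCR sedentary rat 5 these were 0.22 (adjusted p = 0.164) and -0.29 (adjusted p = 0.428). The dimmer Agtr2 probe set, 1398288_at, had overlapping groups and gave 0.13 ± 0.09 between sedentary lines (adjusted p = 0.367) and -0.08 ± 0.09 for training in HCR (adjusted p = 0.696). Averaged over both lines, the training differences of the 2 Agtr2 probe sets were -0.18 and -0.02 (adjusted p = 0.380 and 0.940), and that of Agtr1b was -0.14 (adjusted p = 0.460, or -0.11 and 0.675 without HCR sedentary rat 5).

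Of 9 measured genes that handle corticosteroids 0 were called in limma, with 2 having any probe set at an unadjusted p under 0.05 between sedentary lines. Over all probe sets 27.7% were under that level. The 14 measured target genes of the corticosteroid receptors had 21 probe sets. Of these 3 were called in sedentary rats, beside 4.99% of all probe sets. Ddit4, an inhibitor of mTORC1, fell by 0.85 log2 units in HCR against LCR sedentary rats (SE 0.16, adjusted p = 0.0201), with 7.24 to 7.58 in HCR and 7.86 to 8.48 in LCR. Nedd4l, a ubiquitin ligase that removes the epithelial sodium channel from the membrane, differed by -0.33 ± 0.09 (adjusted p = 0.0420). Scnn1g, a subunit of that channel, differed by 0.30 ± 0.08 (adjusted p = 0.0496). Its other probe set gave 0.23 and was not called (adjusted p = 0.0750). Nedd4l averaged 7.04 log2 units and the called Scnn1g probe set 5.91, near the levels of the brighter Ace probe set and Agt. At those levels like probe sets had median sedentary line differences of -0.09 and 0.08. Their 5th and 95th percentiles were -0.37 and 0.23 for Ace, and -0.24 and 0.28 for Agt. The part of such differences at like level in the Nedd4l and Scnn1g calls was not tested. Leaving out a rat ended the Ddit4 call in 3 of 16 fits, without HCR sedentary rats 4 or 5 or LCR sedentary rat 6 (adjusted p up to 0.0710), and over both training states its call, at -0.54 ± 0.12 (adjusted p = 0.0217), held in all 16. The Nedd4l call ended in 6 of 16, without HCR sedentary rats 3, 4 or 5 or LCR sedentary rats 3, 5 or 6 (adjusted p up to 0.120). The Scnn1g call ended in 11 of 16, without HCR sedentary rats 4, 5 or 6, HCR trained rats 3 or 5, LCR trained rats 1 or 3, or any LCR sedentary rat (adjusted p up to 0.148, without HCR sedentary rat 5). Hsd11b2, which inactivates glucocorticoids beside the mineralocorticoid receptor, was at -0.31 ± 0.07 for training in HCR and was not called (adjusted p = 0.168, or -0.28 and 0.423 without HCR sedentary rat 5).

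Beside Edn1 and Ece1, 6 measured genes of endothelin peptides and processing gave 0 calls in limma in any comparison. In sedentary rats 1 gene had any probe set at an unadjusted p under 0.05. In sedentary rats 6 of the 6 had a positive line difference by their brightest probe set. Their median was 0.07, beside -0.02 over all genes. Of these genes, Edn2 and Ece2 averaged 5.72 and 5.88 log2 units, near the levels of Edn1 and Agt. At those 2 levels the medians of like probe sets were 0.09 and 0.08. The lowest p was that of Ece2, a second endothelin-converting enzyme, at 0.19 ± 0.07 (adjusted p = 0.0912, or 0.18 and 0.199 without HCR sedentary rat 5). Its other probe set gave -0.05 (adjusted p = 0.629). None of 34 measured genes of Gq signalling, 5 of the kinin system and 8 of the nitric oxide branch was called in limma. In sedentary rats 9, 3 and 2 of these genes had any probe set at an unadjusted p under 0.05. Over all probe sets 27.7% were under that level in sedentary rats. That is a share of single probe sets, and a gene with several had more chances to be counted.

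Among 23 measured response genes of heart and vessel, Tgfb3, Nppa and Ncf1 were called over both training states. That was 3 of 29 probe sets, beside 3.84% of all. Tgfb3, a growth factor of matrix remodelling, read 7.17, 7.09, 7.10 and 7.32 in HCR trained and 7.15, 7.00, 6.78 and 7.02 in HCR sedentary rats, against 7.36, 7.47, 7.51 and 7.52 in LCR trained and 7.41, 7.31, 7.41 and 7.28 in LCR sedentary rats. HCR trained rat 6 overlapped the lowest LCR rats. The difference was -0.33 ± 0.05 (adjusted p = 0.00525), and this call held without any single rat (adjusted p at most 0.0139). In sedentary rats it was -0.36 ± 0.07 (adjusted p = 0.0244), a call lost without HCR sedentary rats 4 or 5 or LCR sedentary rats 5 or 6 (adjusted p up to 0.0742). The fibroblast marker levels given above differed between the same sedentary groups, and their part was not tested.

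Nppa, the gene of atrial natriuretic peptide, averaged 12.14 ± 0.58 in HCR trained and 11.93 ± 0.55 in HCR sedentary rats, against 10.77 ± 0.57 in LCR trained and 11.27 ± 0.29 in LCR sedentary rats (SD, n = 4 each). The line difference over both states was 1.01 ± 0.22 (adjusted p = 0.0217), and the call held without any single rat. Of 7 measured atrial markers, Nppa among them, 5 were higher in HCR, with Dkk3 also called, and the list's relative level was -0.373 to 0.172 in HCR trained and -0.0901 to 0.540 in HCR sedentary rats, against -0.594 to 0.198 in LCR trained and -0.0406 to 0.326 in LCR sedentary rats. Its part in the Nppa difference was not tested. Ncf1, a subunit of the phagocyte NADPH oxidase, differed by 0.45 ± 0.12 (adjusted p = 0.0442), a call kept in 4 of the 16 fits that left out a rat, those without HCR trained rat 6, LCR sedentary rat 5 or LCR trained rats 2 or 4, with adjusted p up to 0.0921 (without HCR sedentary rat 5).

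Across the 16 arrays the genes whose values were most like those of a member, by Pearson's r over 14216 other genes, were as follows, as a description without a test. Nr3c2 was nearest to Esrrg, an estrogen-related receptor, and Thrb, a thyroid hormone receptor (r = 0.932 and 0.890, Spearman's rho 0.868 and 0.891). Agtr1a was nearest to Spry4 and Lama1 (r = 0.894 and 0.876), and Edn1 to RGD1562890 and Lcnl (r = 0.877 and 0.856). Agt was nearest to Ubap1l and Stat6 (r = 0.831 and 0.801), and Ece1 to Phlda3 and Sostdc1 (r = 0.822 and 0.801). These points share their arrays and the array differences in value range. For Ace no such r is given, since its values fall into 2 clusters.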

How the data were processed

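The deposited log2 expression values were made by the authors with RMA (background correction, quantile normalization of perfect-match probes and summary per probe set). This comes from the series' design text and, per the submitters' processing notes, RMA and limma were the tools; versions were not given. No source used here states the base of the logarithm, and 2 was assumed from the range of 3.24 to 14.54. The deposited table held 31099 probe sets; 57 Affymetrix controls were left out. Gene names came from the platform annotation: 20826 probe sets had 1 symbol, 436 several and 9780 none.

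A linear model (limma 3.58.1, R 4.3.3) was fitted to every probe set over all 16 arrays (lmFit, contrasts.fit, eBayes), with 1 mean per group, no covariate, 12 residual degrees of freedom and no filter. All tests were two-sided, with Benjamini-Hochberg adjustment over 31042 probe sets in each of 7 comparisons. Every adjusted p comes from this fit or its stated alternative. The fit was tested on simulated data. Groups and rat numbers came from the sample titles, and the numbers name separate rats. Rats with the same number were not paired: their deviations from the group means correlated at -0.231 to 0.261, not above 0.1 in every pair. The number of arrays limits the precision. Levels of different genes were not compared.

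The 8 members, the 9 pathway lists and the 10 marker lists were chosen with earlier results of these data known. Named pathway genes are those called in a comparison, or among the 3 of lowest p in their list. The likeness rule takes the 2 genes of highest r. Alternatives were 2 other scalings, a filter on dim probe sets, 1 probe set per gene, fewer arrays, another variance model, array weights, the animal number as a block, and leaving out each rat. Of the listed genes, 17 without a named probe set were not analysed here.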

Additional observations from a re-analysis of the deposited data

Results flagged for a closer look

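A value was set apart where the gap between the lowest or highest rat of a group and its nearest neighbour, over the group's range, exceeded Dixon's value of 0.829. Of 36 groups of 4 rats 4 met this. For a group picked without sight of its values, chance gives about 1 in 20. The flagged Xist and Ace values are those of HCR sedentary rat 5, already known to be low. The count is therefore a description and cannot be weighed against chance.

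On the dimmer Ace probe set, HCR sedentary rat 5 read 5.42 log2 units against 6.40 to 6.55 in the other 3 of its group. That rat is one of 5 low in Ace, the others being in the trained groups of both lines. In Agt, HCR sedentary rat 6 read 5.79 against 5.89 to 5.90. In Nr3c2, LCR sedentary rat 2 read 7.39 against 7.71 to 7.76, and it is the rat by which the sedentary groups overlapped. In Xist, HCR sedentary rat 5 read 4.54 on the brightest probe set against 9.08 to 9.87 in the other HCR sedentary rats, while Eif2s3y, a gene of the Y chromosome, was at 3.53 in that rat and 3.33 to 3.50 in the other 15.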

How the results depend on the processing

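Each of the 7 counts of called members was recomputed under 8 alternative settings, where the setting allowed it, and without each of 16 rats. Between sedentary lines the count of 0 became 1 with only the arrays of the groups compared (Edn1, adjusted p = 0.0328), 1 with the animal number as a replicate block (Nr3c2, -0.33, adjusted p = 0.0328) and 3 with array weights (Edn1, Nr3c2 and the dimmer Agtr1a probe set, adjusted p = 0.0278, 0.0375 and 0.0311). Leaving out a rat gave 0 to 1. Over both training states the replicate block gave 1 (Nr3c2, -0.29, adjusted p = 0.0293), and leaving out a rat gave 0 to 1. The other 5 counts were 0 under every setting run, and the replicate block changed no other member call. The cause of these changes was not tested. Animal numbers are only shared names here, so the block is no pairing.

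No difference of a gene or probe set with an unadjusted p under 0.05, or called under any setting, changed sign. Of all 56 member differences, whatever their p, 38 kept their sign under every setting run and the rest did not. Of the 11 list gene calls, 3 held under every setting run: Enpep, Tgfb3 and Nppa over both training states. Over both states the replicate block ended the calls of Ddit4 (-0.47, adjusted p = 0.0820), Atp6ap2 (-0.25, adjusted p = 0.0658) and Ncf1 (0.38, adjusted p = 0.0614). Atp6ap2 was also lost with quantile normalization of the summarised values (-0.16, adjusted p = 0.108), and Ncf1 with centring (adjusted p = 0.0548) and with an intensity trend in the variance (adjusted p = 0.0527). Enpep in sedentary rats was lost with arrays centred on their medians (0.22, adjusted p = 0.0890) and under the block (0.22, adjusted p = 0.0715). In sedentary rats quantile normalization ended the calls of Tgfb3 and Nedd4l (adjusted p = 0.0537 and 0.0726), and Scnn1g was lost with it, with centring, with the intensity trend and with only the arrays compared (adjusted p = 0.0525 to 0.0968). When a rat was left out, the calls over all probe sets between sedentary lines ran from 35, without LCR sedentary rat 6, to 1994, against 1549 with all rats, and over both states from 520 to 2575, against 1191. Other settings gave 543 (quantile normalization) to 4183 (array weights) between sedentary lines, with 3000 under the block and 2460 with centring, and 723 to 1779 over both states. Centring arrays on their medians turned the share of calls higher in HCR from 40.2 to 12.1% in sedentary rats and from 37.8 to 15.9% over both states. RMA values compress differences near background, which bears on Agtr1a, Edn1 and Agt, and 4 rats per group limit what could be called.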
